A study of Mus musculus with 107 samples.

Results

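Metallothioneins are small cysteine-rich proteins that bind zinc, copper and cadmium. The 3 members followed here, Mt1, Mt2 and Mt3, were picked by symbol and matched to the mouse Entrez identifiers 17748, 17750 and 17751 among the 27179 genes counted in each library. All 3 were detected in all 107 libraries, and each passed the filter on low counts in every comparison made. They lie next to each other on the + strand of mouse chromosome 8, at positions 94152607–94154148 (Mt3), 94172618–94173567 (Mt2) and 94178883–94180327 (Mt1) of GRCm38.

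Mt1 and Mt2 are made in most tissues and rise with zinc, cadmium, glucocorticoids, oxidative stress and cytokines of the IL-6 family. Metals act on them through Mtf1, a zinc finger protein that binds zinc and then attaches to short metal response elements (MRE) before the gene. Mt3 is enriched in brain, is found in astrocytes and neurons, and is known as a growth inhibitory factor that responds less to metals. In the injured central nervous system Mt1 and Mt2 are well known products of reactive astrocytes.

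The bases before each listed start are shown with the MRE matches that they hold. The capitals mark matches to the MRE core TGCACNC or TGCGCNC on either strand, in 250 bases before the start listed by RefSeq on GRCm38.p6. For Mt1, 30 bases around its match are printed, since the start listed for its window, 94179089, lies inside the annotated gene.
Mt1, chr8:94179055-94179084, + strand: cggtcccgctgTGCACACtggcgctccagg
Mt2, chr8:94172368-94172617, + strand: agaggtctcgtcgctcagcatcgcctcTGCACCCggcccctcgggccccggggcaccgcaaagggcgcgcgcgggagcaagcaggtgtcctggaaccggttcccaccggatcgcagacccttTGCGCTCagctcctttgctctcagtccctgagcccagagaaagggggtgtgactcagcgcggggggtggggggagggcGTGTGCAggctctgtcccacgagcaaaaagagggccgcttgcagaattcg
Mt3, chr8:94152357-94152606, + strand: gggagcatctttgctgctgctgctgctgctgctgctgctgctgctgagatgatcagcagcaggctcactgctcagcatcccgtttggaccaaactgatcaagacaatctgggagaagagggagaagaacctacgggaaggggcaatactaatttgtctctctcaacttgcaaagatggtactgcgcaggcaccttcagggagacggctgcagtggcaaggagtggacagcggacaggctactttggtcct
Mt1 held 1 match, Mt2 held 3 and Mt3 held 0 in these windows. At least 1 match was present in 21.4% of 32851 promoters of the same length, and at least 3 in 1.26%. With the 50 bases after the listed start included, the counts were 3 for Mt1, 4 for Mt2 and 1 for Mt3, and 1.97%, 0.518% and 25.7% of promoters held as many. Mt2 also had 1 match to the antioxidant response core TGACNNNGC, which 10.2% of promoters contained. No window of a member held the STAT core TTCNNNGAA, the glucocorticoid receptor hexamer TGTTCT or CACGTG. Most of the window of Mt1 lies inside its annotated gene, so its counts do not describe the bases before that gene. The differences in matches between members therefore depend on where the windows lie. These matches describe letters in a window and were not tied to the levels below.

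RNA bound to ribosomes was sequenced in 107 libraries of 23 groups. All samples carried the RiboTag allele, an HA-tagged Rpl22 that lets ribosomes of chosen cells be pulled down, on C57BL/6. Embryonic stem cells (ESC) had come from RiboTag crossed with Sox2-cre mice, and neural progenitor cells (NPC) had been derived from these ESC, so grafted NPC carried the tag and wildtype hosts did not. Host astrocytes were tagged through Cre under the mouse Gfap promoter. NPC were sampled at passages 5, 15 and 30 of 1 derivation (P5, P15, P30) and at passage 15 of 2 other derivations (D2, D3). They were differentiated over 4 days by cutting EGF and FGF to 1 ng/ml, from 100 in expansion medium (SPONT), or with CNTF or IGF-1 at 100 ng/ml, or with fetal bovine serum (FBS) at 1, 5, 10 or 20%, or with CNTF plus 5% FBS. Before grafting, NPC were passed through a pipette in media, in the polypeptide hydrogel DCH, or in DCH after a 4 h stay. Grafts into uninjured spinal cord, into a crush injury (SCI) or into a double crush (dSCI) were recovered at 14 d, and grafts into SCI also at 5 d. Mice were females and males of 8 weeks to 4 months, and NPC were placed 2 days after injury in injured cords. Host astrocytes were taken from healthy cord and at 14 days after crush. Groups held 4 libraries in culture experiments apart from 6 for P15 D2, 5 for each pipette and graft group and for injured host astrocytes, and 9 for healthy host astrocytes.

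Depth was 30473157–147764968 counts in the 96 paired libraries and 12286240–18085106 in the 11 single-read ones, which were all those of P15 D2 and of the 5-day grafts. Levels below are CPM, the counts of a gene scaled to a common library total, or FPKM where genes are compared with each other, obtained from CPM and the length of the curated mRNA. No 50-base stretch of a member's mRNA occurred in another gene, so reads of that length can be told apart. The markers of the labelled cells were present: Pou5f1, Nanog, Dppa4 and Zfp42 summed to 1466–1526 CPM in ESC and at most 0.405 CPM in NPC P15, and 7 astrocyte markers summed to 41337–48338 CPM in healthy host astrocytes. Graft libraries held markers of several cell types, and the sums of these markers stand beside the results. Myeloid markers summed to at most 2.59 CPM in NPC in DCH and to 192.5–15114 CPM in grafts. Whether RNA of untagged host cells came through the pull-down, and added to the levels in grafts, was not tested. In bulk samples fewer cells of a type and less RNA per cell cannot be told apart.

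Each member spanned a wide range of levels over the 23 groups. The highest mean of all 3 was in host astrocytes after SCI, at 7913 ± 3549 CPM for Mt1, 4384 ± 2125 for Mt2 and 1887 ± 941 for Mt3 (SD, n = 5). Replicate 5 raised these means, at 14196, 8148 and 3564 CPM. By median this group stayed highest for Mt1 and Mt2 but not for Mt3. Its median of Mt3 was 1459 CPM, below 1778 CPM at 5% FBS and 1599 CPM at 1% FBS. The lowest mean was 26.1 ± 4.62 CPM for Mt1, in NPC passed through a pipette in media (n = 5). It was 5.03 ± 0.883 CPM for Mt2 in NPC P15 and 9.51 ± 2.65 CPM for Mt3 in ESC (n = 4 each). Top and bottom means, with replicate 5 of the injured host group included, differed 303-fold, 872-fold and 198-fold. Together the 3 genes took 0.0041% of all counts in NPC P15 and 1.42% in host astrocytes after SCI, with up to 2.59% in 1 library there.

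**Figure D1:**
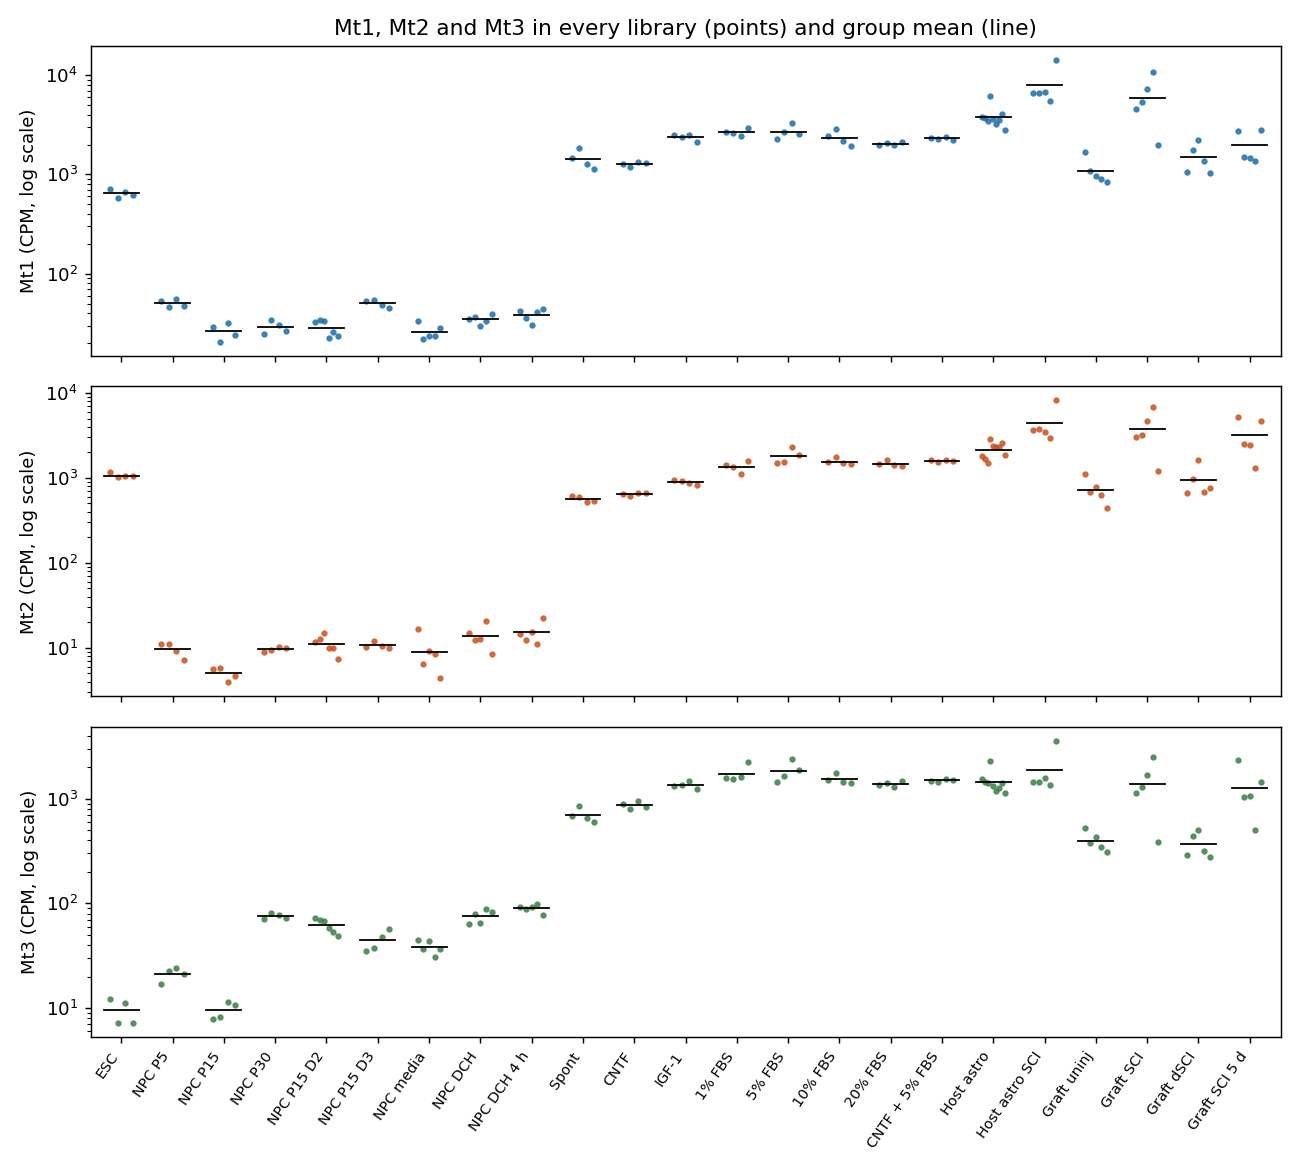
Level of each metallothionein (CPM, log axis) in all 107 libraries of 23 groups, 1 point per library, with a line at the group mean. Undifferentiated NPC sit below 100 CPM for all 3 genes, ESC sit high for Mt1 and Mt2 but near 9.51 CPM for Mt3, and differentiated NPC, grafts and host astrocytes sit above undifferentiated NPC for all 3.

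Ordered by mean level, the groups fell into blocks more than into single steps. Of the 22 pairs of neighbours in that order, the ranges of the libraries overlapped in 18 for Mt1, 21 for Mt2 and 18 for Mt3. The breaks for Mt1 lay between CNTF plus 5% FBS and 20% FBS, between uninjured grafts and ESC, between ESC and NPC P5, and between P15 D3 and the 4 h hydrogel group. The only break for Mt2 lay between SPONT (516–608 CPM) and the 4 h hydrogel group (11.0–22.5 CPM). For Mt3 they lay below SPONT, below dSCI grafts, below NPC in media and below NPC P5. With TMM-scaled library sizes no group moved by more than 1 place for Mt1 and Mt2 or 4 places for Mt3, and no group mean moved by more than 1.29-fold.

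The balance between members also varied between groups. In FPKM, Mt3 made up 0.536 ± 0.118% of the family in ESC (SD, n = 4), 23.7 ± 3.64% in NPC P15 and 66.3 ± 1.15% in NPC P30. It made up 26.1 ± 0.878% in SPONT and between 27.6% and 31.2% in the other differentiated groups. In healthy host astrocytes the share was 17.3–22.1%, and after SCI 12.3–13.9%. With the curated mRNA lengths, Mt1 had the largest share in all groups but 7. Mt2 led in ESC and in 5-day grafts, and Mt3 led in P30, P15 D2 and the 3 pipette groups. In P15 D3 the shares of Mt1 and Mt3 were close, at 47.1% and 42.1%.

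**Figure D2:**
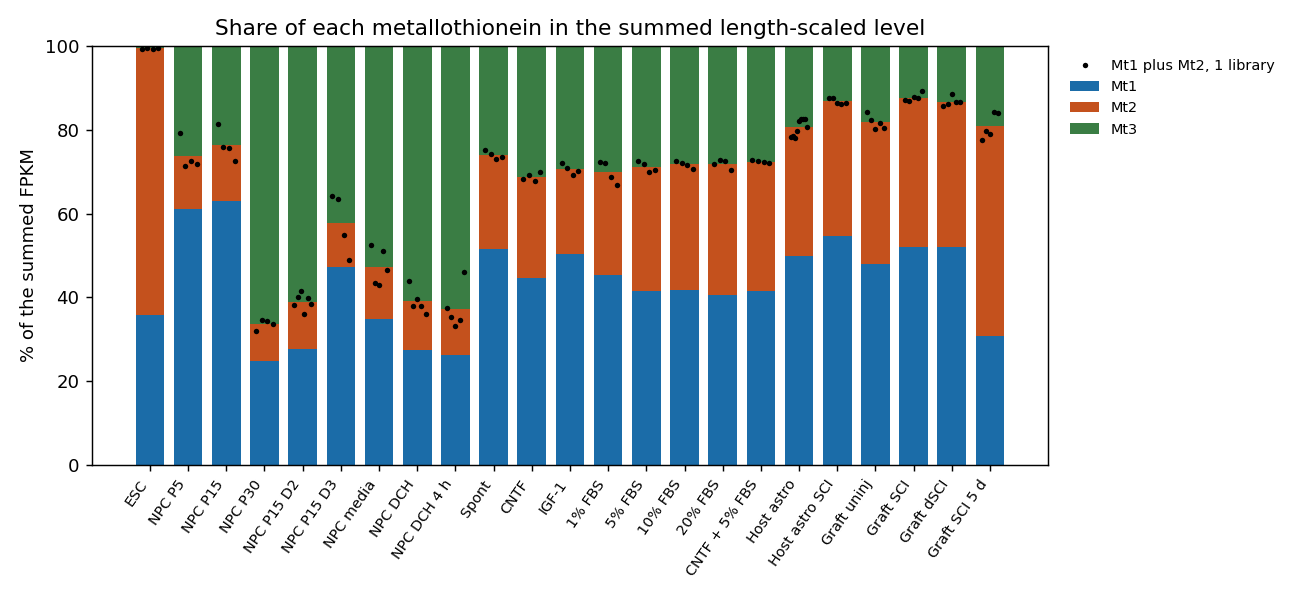
Share of each member in the summed FPKM of Mt1, Mt2 and Mt3 per group (stacked bars, mean over libraries, in percent), with a point per library at Mt1 plus Mt2. Mt3 takes under 1% in ESC, 66.3% in NPC P30 and 13.2% in host astrocytes after SCI.

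Over group means of log2(CPM + 1), Mt1 and Mt2 had a Pearson correlation of 0.99 (n = 23 groups), Mt1 and Mt3 of 0.86 and Mt2 and Mt3 of 0.82. Without ESC these were 0.99, 0.95 and 0.96. Over the 107 libraries, as deviations from the group mean, they were 0.76, 0.85 and 0.74, which share library and depth. The genes most like each member over the 23 group means, among 13133 genes with at least 10 CPM in a group, included Cystm1 (r = 0.965) and Fbxo2 for Mt1. They were Hsd17b11 (r = 0.973), Hspb8 and Nmnat2 for Mt2 and Lxn (r = 0.967), H2bc4 and H1f2 for Mt3.

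Mt1 and Mt2 were far lower in NPC than in the ESC they had been derived from. Mt1 was at 717, 583, 668 and 615 CPM in the 4 ESC libraries and at 28.8, 20.6, 32.2 and 24.1 CPM in NPC P15. Its log2 fold change (log2FC) was -4.70 ± 0.14 (standard error, edgeR quasi-likelihood F test, adjusted p = 1.11e-10), a 25.96-fold fall. Mt2 went from 1164, 1015, 1045 and 1045 CPM to 5.67, 5.81, 3.92 and 4.72 CPM, with a log2FC of -7.81 ± 0.12 (adjusted p = 1.04e-12). The groups were far apart for both genes. Many genes moved, since 34.9% of the 15350 genes tested were lower in NPC P15 and 67.2% were called in either direction at an adjusted p below 0.01.

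Mt3 was low in both cell types. It was at 12.3, 7.23, 11.2 and 7.27 CPM in ESC and 7.83, 8.30, 11.5 and 10.8 CPM in NPC P15, which overlap, and its log2FC of -0.08 ± 0.24 was not called (adjusted p = 0.786). That holds for NPC P15 only. Against ESC, Mt3 was higher by 1.03 on the log2 scale in NPC P5, 2.89 in P30, 2.55 in P15 D2 and 2.13 in P15 D3, each called. The share of all genes called in these fits is not given here. It was 67.2% for P15, so a call alone says little. The P15 D2 libraries were single-read and the ESC libraries paired, so cell type and read type cannot be told apart there.

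Mt3 also differed between passages and derivations of NPC. Between P5 and P30, Mt3 went from 16.8, 22.7, 24.2 and 21.1 CPM to 71.5, 81.0, 78.03 and 72.0 CPM (log2FC 1.81 ± 0.10, adjusted p = 1.51e-11), with no overlap. Mt1 went the other way, from 53.3, 45.9, 55.4 and 47.5 CPM to 24.9, 33.9, 30.8 and 26.6 CPM (log2FC -0.82 ± 0.10, adjusted p = 1.78e-06). Mt2 was near 9.7 CPM in both groups, with a log2FC of -0.03 ± 0.17 (adjusted p = 0.901). Of 14577 genes, 35.5% were called, 17.5% higher and 18.1% lower at P30. P15 does not lie between P5 and P30 for Mt3, with a mean of 9.59 ± 1.79 CPM.

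At passage 15 the derivations differed. Mt3 ranged over 49.2–72.0 CPM (median 62.995) in D2 and was at 34.8, 37.9, 47.9 and 57.2 CPM in D3. Against the P15 libraries above, the log2FC was 2.69 ± 0.12 for D2 and 2.27 ± 0.18 for D3 (adjusted p = 5.43e-13 and 3.40e-07). Mt2 rose by 1.13 in both, to 11.0 ± 2.58 and 10.7 ± 0.883 CPM. Mt1 was called in D3, at 50.3 ± 4.38 CPM (log2FC 0.98 ± 0.13), and not in D2, at 28.7 ± 5.23 CPM (log2FC 0.12 ± 0.13, adjusted p = 0.443). Of 13148 genes 55.9% were called for D2 (26.5% higher), and of 14370 genes 48% for D3 (23.6% higher). The D2 libraries were single-read and the P15 libraries paired, so derivation and read type cannot be told apart there.

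The pipette groups asked whether handling before a graft moves these genes. In media the 5 libraries had 45.05, 36.7, 43.6, 30.5 and 36.8 CPM of Mt3, against 7.83–11.5 CPM in cultured NPC P15 (log2FC 2.01 ± 0.15, adjusted p = 4.20e-09), where 26.2% of 14263 genes were called and 13.2% were higher. The labels do not say which passage or derivation of NPC went through the pipette, so P15 is a choice of reference, and the results turned with it. Mt3 in media was called lower than in P15 D2 and P30 (log2FC -0.67 and -0.93), and the log2FC of -0.28 against P15 D3 was not called. Neither Mt1 (log2FC -0.01 ± 0.15) nor Mt2 (0.85 ± 0.31, adjusted p = 0.0412) was called against P15. Without replicate 5 in media Mt2 was (1.03, adjusted p = 0.00815). Mt1 was called lower than in P15 D3 and P5 (-1.009 and -0.92), and the log2FC of Mt2 was below 0 against each of the other cultured NPC groups, without a call.

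Mt3 was higher in the hydrogel than in media, in a comparison in which few genes moved. In DCH the 5 libraries had 64.2, 79.7, 65.0, 88.97 and 83.4 CPM of Mt3, all above the 5 in media. The log2FC was 0.99 ± 0.12, a 1.99-fold rise (adjusted p = 6.28e-06), where 1.91% of 13860 genes were called higher and 4.32% in either direction. Mt1 was at 35.1, 36.7, 30.0, 33.6 and 39.3 CPM in DCH and 33.3, 21.9, 23.8, 23.6 and 28.2 CPM in media. These ranges overlap, and the log2FC of 0.42 ± 0.13 was not called (adjusted p = 0.0419), except without replicate 1 in media, where it was 0.53 (adjusted p = 0.00848). Mt2 had a log2FC of 0.62 ± 0.29 (adjusted p = 0.209), with 4.38–16.7 CPM in media and 8.37–20.8 CPM in DCH.

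A stay of 4 h in the hydrogel added no called change. Mt3 was at 93.2, 87.7, 92.6, 98.7 and 77.9 CPM after 4 h, which overlaps DCH without the stay (log2FC 0.24 ± 0.10, adjusted p = 0.365). Of 13768 genes 0.32% were called in that comparison. Mt1 and Mt2 had log2FC of 0.15 ± 0.12 and 0.14 ± 0.23. Set against media, the 4 h group had a log2FC of 1.24 ± 0.11 for Mt3 (adjusted p = 3.39e-08) and 0.58 ± 0.14 for Mt1 (adjusted p = 0.00579), where 7.79% of 13794 genes were called and 3.72% were higher. Mt2 had 0.76 ± 0.28 (adjusted p = 0.0724) and was called without replicate 1 in media (1.10, adjusted p = 0.00406). The call of Mt1 was lost without any 1 of 7 of the 10 libraries, with adjusted p of up to 0.0246.

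**Figure D3:**
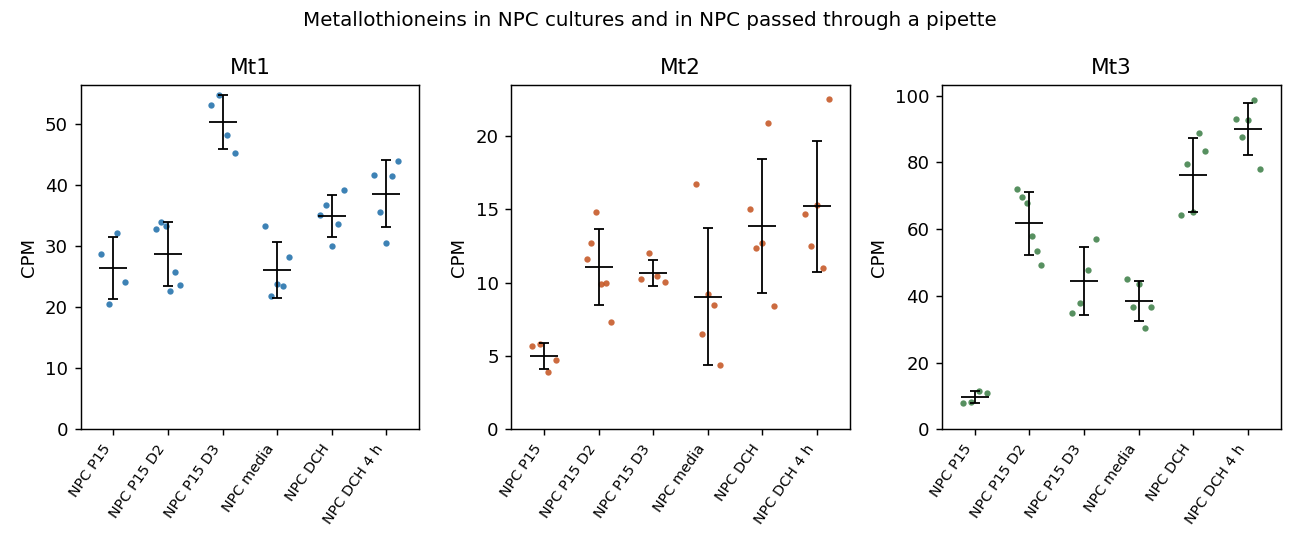
Mt1, Mt2 and Mt3 (CPM, linear axes from 0) in cultured NPC of passage 15 and in NPC passed through a pipette, with a point per library, a bar at the mean and whiskers of 1 SD. Mt3 rises from 38.5 CPM in media to 76.3 in DCH and 90.01 CPM in DCH after 4 h, while the points of Mt1 and Mt2 overlap between these groups.

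Between DCH and media, where 4.32% of all genes were called, lists of this length would hold about 1 call or none at that share. Of 25 genes that handle zinc, 17 were tested and 0 were called by edgeR (median log2FC 0.05, beside 0.00 over all genes). At an unadjusted p below 0.05 these were 3, and DESeq2 called 1. The zinc exporter Slc30a1, itself a target of Mtf1, had a log2FC of 0.22 ± 0.12 (adjusted p = 0.312), and Mtf1 of 0.11 ± 0.11. Of 11 copper genes edgeR called 0 (4 at an unadjusted p below 0.05, 1 by DESeq2), and of 12 antioxidant genes that depend on Nrf2 it called 0 (3 unadjusted, 0 by DESeq2). Of 9 genes known to be induced by glucocorticoids it called 1 lower. Of 12 known to be induced through gp130 and STAT3 it called 1 higher.

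All members were far higher in NPC left to differentiate than in NPC P15. In SPONT, Mt1 was at 1479, 1863, 1264 and 1128 CPM, against 20.6–32.2 CPM in NPC P15 (log2FC 5.90 ± 0.22, adjusted p = 2.70e-09). Mt2 was at 608, 597, 516 and 538 CPM (log2FC 6.94 ± 0.15, adjusted p = 6.43e-11). Mt3 was at 691, 854, 654 and 602 CPM (log2FC 6.33 ± 0.18, adjusted p = 4.35e-10). All 4 libraries of each group stood apart for each gene. Of 14852 genes, 29.8% were called higher, and by the size of their log2FC the members lay beyond 96.8%, 97.7% and 97.2% of the genes tested.

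The sums of glial markers were also higher here. The 7 astrocyte markers summed to 1129–1147 CPM in NPC P15 and 11364–14991 CPM in SPONT, and 6 oligodendroglia markers to 65.2–71.7 and 467–1438 CPM. Single markers need not follow a sum: in the study's FPKM table the astrocyte marker Slc1a3 was lower in spontaneous differentiation than in NPC. The part of these markers in the rise of the metallothioneins was not tested. Among genes for zinc, 7 of 20 tested were higher and 3 lower (median log2FC 0.23, beside 0.08 over all genes), a share below the 57.2% of all genes that were called. The largest change was that of the zinc and manganese exporter Slc30a10, at 7.48 ± 0.68 (adjusted p = 2.48e-06), from 0.191 to 27.3 CPM. Slc30a1 rose by 0.43 ± 0.10 and Mtf1 fell by 0.33 on the log2 scale (adjusted p = 0.00304 and 0.00634). Of the Nrf2 genes 7 of 12 were higher and 3 lower (83.3% called), and Gsta4, a glutathione transferase, had a log2FC of 2.93 ± 0.28.

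With CNTF, a cytokine that signals through gp130 and STAT3, no member was called. Against SPONT, Mt1 was at 1283, 1180, 1349 and 1290 CPM (log2FC -0.15 ± 0.14, adjusted p = 0.444). Mt2 was at 645, 605, 658 and 661 CPM (log2FC 0.20 ± 0.08, adjusted p = 0.0625), and Mt3 at 894, 798, 958 and 837 CPM (log2FC 0.33 ± 0.12, adjusted p = 0.0509). The CNTF libraries overlapped those of SPONT for all 3 genes. In the same fit 19.9% of 14879 genes were called, and 11 of 12 genes known to be induced through gp130 and STAT3 were higher (median log2FC 2.56, beside -0.01 over all genes). Bcl3 had a log2FC of 6.12 ± 0.28 and Socs3, the feedback inhibitor of this pathway, 4.21 ± 0.33. Without SPONT replicate 2, Mt2 and Mt3 were called higher, at 0.25 and 0.46 (adjusted p = 0.00636 and 0.000289).

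The balance of members under CNTF did not overlap that of SPONT. The log2 ratio of Mt3 to the sum of Mt1 and Mt2, taken within a library in FPKM, was -1.14 ± 0.07 with CNTF and -1.50 ± 0.07 in SPONT (SD, n = 4 each). The difference of 0.36 had an exact permutation p of 0.0286, the smallest that 4 against 4 libraries allow, and 0.0571 after adjustment over 12 ratio tests, above the threshold of 0.05. Mt2 over Mt1 was higher by 0.33 with the same p. Slc30a1 fell by 0.45 on the log2 scale (adjusted p = 0.00359) and Mtf1 had a log2FC of -0.05 ± 0.07.

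IGF-1 went with higher levels of all members. Mt1 was at 2523, 2397, 2479 and 2104 CPM (log2FC 0.78 ± 0.15 against SPONT, adjusted p = 0.00800), Mt2 at 936, 923, 865 and 830 CPM (0.70 ± 0.08, adjusted p = 0.00383) and Mt3 at 1336, 1365, 1484 and 1239 CPM (1.00 ± 0.12, adjusted p = 0.00383). No IGF-1 library overlapped SPONT for any member. Of 14941 genes 6.55% were called and 2.8% were higher. The calls were near the threshold: they were lost without any 1 of 7, 6 and 6 of the 8 libraries, with adjusted p of up to 0.0343, and with the replicate number as a block (adjusted p = 0.0166, 0.0162 and 0.0162), while the log2FC stayed at 0.66 or more. Oligodendroglia markers summed to 2028–2311 CPM with IGF-1 and 467–1438 CPM in SPONT, and astrocyte markers to 17419–19355 and 11364–14991 CPM, and their part was not tested.

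All members were higher with 1% serum than in SPONT. Mt1 was at 2680, 2638, 2454 and 2908 CPM, Mt2 at 1418, 1337, 1117 and 1560 CPM and Mt3 at 1576, 1534, 1623 and 2229 CPM. Against SPONT the log2FC were 0.91 ± 0.14, 1.28 ± 0.10 and 1.32 ± 0.14 (adjusted p = 0.00173, 2.93e-05 and 0.000163), with no overlap, where 8.78% of 14938 genes were called and 5.63% were higher. These calls held without any 1 of the 8 libraries. Astrocyte markers summed to 22046–26176 CPM at 1% FBS and 11364–14991 CPM in SPONT, and fibroblast and pericyte markers to 22.3–123 and 12.0–15.2 CPM, and their part was not tested. Of the Nrf2 genes 7 of 12 were higher, among them Osgin1 (log2FC 1.24 ± 0.23) and the quinone reductase Nqo1 (1.22 ± 0.15), and 9 of 12 gp130 and STAT3 genes were higher. Of 20 zinc genes 3 were higher, including the importers Slc39a12 (1.74 ± 0.12) and Slc39a14 (0.97 ± 0.13). Slc30a1 and Mtf1 had log2FC of 0.17 ± 0.10 and -0.05 ± 0.09, neither called.

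No member was called between neighbouring serum doses above 1%. At 5% FBS, Mt1 was at 2265, 2660, 3296 and 2568 CPM, Mt2 at 1484, 1559, 2282 and 1879 CPM and Mt3 at 1432, 1666, 2419 and 1891 CPM. No member was called between 1 and 5% (log2FC 0.01, 0.40 and 0.08), where 31.1% of 15226 genes were, nor between 5 and 10% (1.82% of genes), nor between 10 and 20% (4.4%). The log2FC of Mt2 between 1 and 5% was 0.40 ± 0.14 (adjusted p = 0.0334). Between 5 and 10%, 1412 of 15302 genes were called with the replicate number as a block, beside 279 without it. Still no member was called there.

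Between 1 and 20% FBS, Mt1 and Mt3 were called lower and Mt2 was not called. Mt1 was at 1989, 2095, 1966 and 2101 CPM at 20%, all below the libraries at 1% (log2FC -0.42 ± 0.06, adjusted p = 6.45e-05). Mt3 was at 1364, 1403, 1293 and 1466 CPM, also all below (log2FC -0.36 ± 0.10, adjusted p = 0.00723). Mt2, at 1449, 1611, 1422 and 1366 CPM, overlapped its level at 1% (log2FC 0.08 ± 0.09, adjusted p = 0.444). Of 15381 genes 29.6% were called lower and 60% in either direction, and the sizes of the changes of Mt1 and Mt3 were above those of 43.7% and 38.5% of genes. The call of Mt3 was lost without any 1 of 4 libraries, with adjusted p of up to 0.0265, and in 1 fit of all groups neither Mt1 (-0.43, adjusted p = 0.153) nor Mt3 (-0.37, adjusted p = 0.278) was called. Mt2 over Mt1 was higher by 0.50 on the log2 scale at 20% with no overlap (exact permutation p = 0.0286, adjusted p = 0.0571).

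Cell markers also changed along the serum series. The 7 astrocyte markers summed to 22046–26176 CPM at 1% FBS and 5539–6161 CPM at 20%, and 5 fibroblast and pericyte markers to 22.3–123 CPM and 453.6–546 CPM. Their part in these levels was not tested. Slc30a1 was higher at 20% by 0.72 ± 0.07 on the log2 scale (adjusted p = 2.58e-06), opposite in sign to Mt1, and Slc30a10 had a log2FC of -3.12 ± 0.13. Of the Nrf2 genes, 3 were higher and 8 lower of 12, with Slc7a11, the cystine importer, at -5.36 ± 0.15. Of 10 genes known to be induced by glucocorticoids, 7 were higher and 1 lower, a share of 80% beside 60% of all genes. Of the gp130 and STAT3 genes, 3 were higher and 4 lower of 12.

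The effect of serum was smaller for Mt3 when CNTF was present. With CNTF plus 5% FBS, Mt1 was at 2340, 2274, 2401 and 2217 CPM, Mt2 at 1613, 1543, 1616 and 1598 CPM and Mt3 at 1493, 1446, 1541 and 1498 CPM. Set against CNTF alone, all were higher, by 0.74 ± 0.05, 1.20 ± 0.04 and 0.66 ± 0.05 (adjusted p = 1.01e-10, 2.45e-14 and 2.06e-09), in a fit in which 72.8% of 15203 genes were called and 36.1% were higher. Set against 5% FBS alone no member was called (log2FC -0.29, -0.25 and -0.38, adjusted p = 0.0347, 0.110 and 0.0365), where 23.3% of genes were. The effect of CNTF in 5% FBS differed from that without serum for Mt3 by -0.72 ± 0.18 (adjusted p = 0.00560), where 12.6% of 15726 genes had a called negative difference. For Mt2 it was -0.46 ± 0.14 (adjusted p = 0.0166) and for Mt1 -0.15 ± 0.18, not called. The call for Mt3 was lost without any 1 of 12 of the 16 libraries (adjusted p of up to 0.0179).

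**Figure D4:**
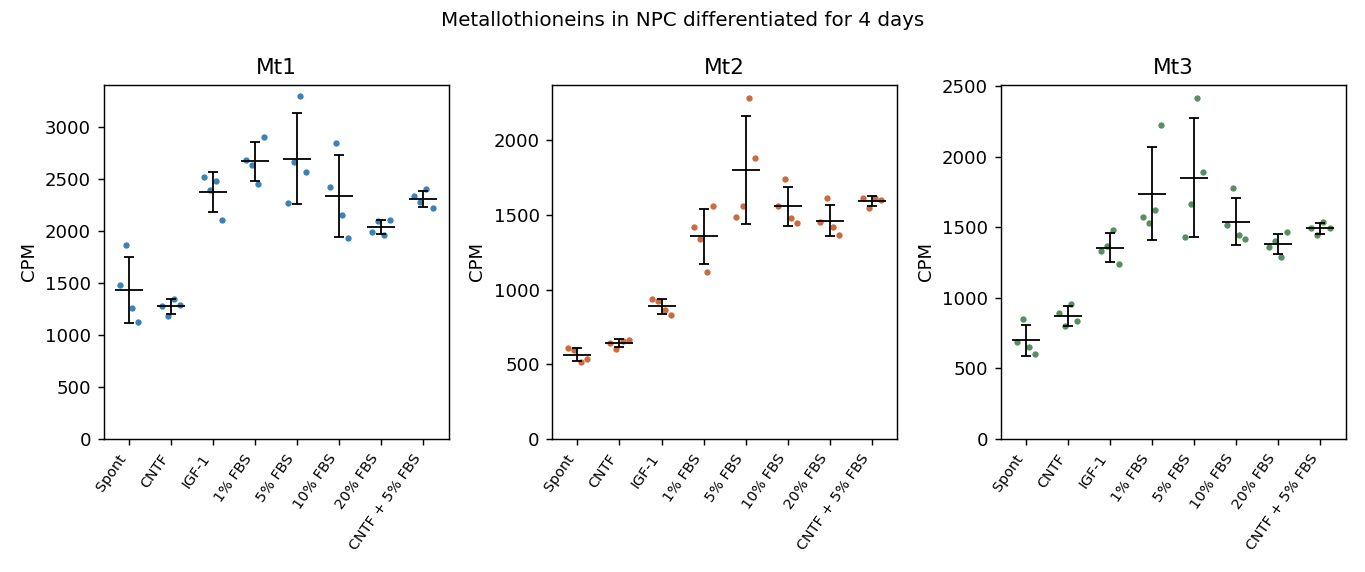
Mt1, Mt2 and Mt3 (CPM, linear axes from 0) in NPC differentiated for 4 days under 8 conditions, with a point per library, a bar at the mean and whiskers of 1 SD. The IGF-1 and serum libraries lie above SPONT for all 3 genes, and CNTF overlaps SPONT.

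Host astrocytes were compared between healthy cord and cord at 14 days after crush. Mt1 ranged over 2818–6109 CPM (median 3604) in 9 healthy libraries, and was at 6583, 6587, 6737, 5463 and 14196 CPM after SCI. Its log2FC was 0.90 ± 0.22 (adjusted p = 0.00218), a 1.87-fold rise, with the lowest injured library below the highest healthy one. Mt2 ranged over 1517–2895 CPM (median 2338) and was at 3632, 3748, 3431, 2963 and 8148 CPM after SCI, with no overlap (log2FC 0.86 ± 0.23, adjusted p = 0.00485). Mt3 ranged over 1127–2295 CPM (median 1410) and was at 1459, 1457, 1590, 1366 and 3564 CPM, with a log2FC of 0.24 ± 0.23 (adjusted p = 0.408). Of 16886 genes 22.2% were called higher. Injured replicate 5 was the highest library for each member. Without it Mt1 rose by 0.52 and stayed called (adjusted p of at most 0.00753 over all libraries left out), the log2FC of Mt2 was 0.46 (adjusted p = 0.0263, not called) and that of Mt3 was -0.19.

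The healthy host libraries fell into 2 sets by their whole profile, and this touches the result. Over 9792 genes, members left out, replicates 1 to 4 and 5 to 9 separated on the first component, which held 45.2% of the variance. The labels name no batch for them. Against replicates 1 to 4 alone the log2FC after SCI was 0.79 for Mt1 (adjusted p = 0.0693), 1.05 for Mt2 (adjusted p = 0.0291) and 0.06 for Mt3. Against replicates 5 to 9 it was 0.99 (adjusted p = 0.00665), 0.72 (adjusted p = 0.0392) and 0.38, so only Mt1 in the second set was called. The share of all genes called in these fits is not given here.

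The balance between members separated the groups without overlap. The log2 ratio of Mt3 to Mt1 plus Mt2 was -2.05 ± 0.18 in healthy (SD, n = 9) and -2.72 ± 0.09 in injured host astrocytes (n = 5), with no overlap. The difference was -0.66 (exact permutation p = 0.000999, the smallest it can give, adjusted p = 0.0120), and no left-out library lost the call. It was -0.84 against replicates 1 to 4 and -0.52 against replicates 5 to 9 (exact permutation p = 0.0159 and 0.00794, not adjusted), again with no overlap. Mt2 over Mt1 did not differ with all 9 libraries (difference -0.05, adjusted p = 0.799), but the 2 healthy sets lay on either side of the injured libraries, with a linear ratio of 0.469–0.519 in replicates 1 to 4 and 0.683–0.773 in replicates 5 to 9. The difference was then 0.25 and -0.28, so its direction turned with the healthy set.

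The lists differed in direction in injured host astrocytes, where 41.1% of all genes were called. Of 23 zinc genes tested, 4 were higher and 7 lower (median log2FC -0.25, beside 0.02 over all genes), a share near that of all genes. Slc30a1 had a log2FC of -0.35 ± 0.12 (adjusted p = 0.0188) and Mtf1 of -0.25 ± 0.13, neither called, and Slc30a10 was lower by -2.41 ± 0.29. Of the genes induced through gp130 and STAT3, 10 of 12 were higher and 1 lower, led by the lipocalin Lcn2 (8.94 ± 0.58) and the protease inhibitor Timp1 (5.38 ± 0.28). Of 10 genes known to be induced by glucocorticoids 7 were lower and 0 higher, with Zbtb16 at -3.61 ± 0.24 and Tsc22d3 at -3.41 ± 0.17. Nrf2 genes were mixed, 5 higher and 4 lower of 12, with heme oxygenase Hmox1 at 1.91 ± 0.11.

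Markers of other cells moved with injury in the host pull-downs. The 6 oligodendroglia markers summed to 5084–10963 CPM in healthy and 21239–35957 CPM in injured libraries, the 8 myeloid markers to 17.7–35.95 and 283.8–2109 CPM, and the 7 astrocyte markers to 41337–48338 and 25755–43726 CPM. Fibroblast and pericyte markers summed to 47.4–98.04 CPM in healthy and 454–1009 CPM in injured libraries, and endothelial markers to 3.03–5.83 and 8.34–14.6 CPM. The part of these markers in the levels of the metallothioneins was not tested.

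In grafted NPC all members were higher in SCI than in uninjured cord. In uninjured cord, Mt1 was at 1687.4, 1081, 956, 895 and 834 CPM, and in SCI at 4518, 5312, 7267, 10675 and 1965 CPM. No library overlapped, and the log2FC was 2.71 ± 0.37 (adjusted p = 0.000805), a 6.53-fold rise. Mt2 went from 1110, 676, 789, 623 and 437 CPM to 3030, 3201, 4685, 6813 and 1217 CPM (log2FC 2.65 ± 0.38, adjusted p = 0.000916), also with no overlap. Mt3 went from 528, 377, 433, 346 and 309 CPM to 1132, 1304, 1669, 2492 and 387 CPM (log2FC 2.07 ± 0.35, adjusted p = 0.00245), and graft replicate 5 in SCI lay within the uninjured range. All 3 were among the 2.09% of 15813 genes called higher (4.64% in either direction), and the calls held without any 1 of the 10 libraries, with log2FC of Mt1 from 2.36 to 2.92.

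Levels within the SCI grafts spread widely, while the shares of the members varied little. The coefficient of variation was 54.7%, 55.2% and 55.1% for Mt1, Mt2 and Mt3, while the share of Mt3 in the family stayed at 10.8–13.2%. The log2 ratio of Mt3 to Mt1 plus Mt2 was -2.83 ± 0.13 in SCI and -2.17 ± 0.16 in uninjured cord (SD, n = 5 each), with no overlap. The difference of -0.66 had an exact permutation p of 0.00794, the smallest possible, and an adjusted p of 0.0317. With 4 against 5 libraries the adjusted p cannot go below 0.0571 here, so leaving out a library ends this call by design, at differences of -0.72 to -0.61. Mt2 over Mt1 had a difference of -0.05 (adjusted p = 0.752).

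In SCI grafts the gp130 and STAT3 genes had the most calls among the lists, where 4.64% of all genes were called. The 1 or 2 calls in the other lists cannot be set apart from that share. Of the gp130 and STAT3 genes 8 of 12 were higher than in uninjured grafts, with Lcn2 at 6.05 ± 0.45 and Timp1 at 2.72 ± 0.32. Of 23 zinc genes only 1 was called, the importer Slc39a14 (1.21 ± 0.26, adjusted p = 0.00924). Slc30a1 and Mtf1 had log2FC of 0.12 ± 0.22 and 0.43 ± 0.17, neither called. Of 11 copper genes 1 was higher, the copper chaperone Atox1 (1.51 ± 0.24), and 2 of 12 Nrf2 genes were higher, Nqo1 (1.21 ± 0.25) and Hmox1 (1.07 ± 0.22).

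In the double crush edgeR called no member against uninjured cord, and all were called lower than in the single crush. In dSCI, Mt1 was at 1048, 1780, 2236, 1357 and 1042 CPM, Mt2 at 669, 973, 1617, 680 and 766 CPM and Mt3 at 289, 444, 506, 316 and 281 CPM. All overlapped the uninjured grafts, with log2FC of 0.68 ± 0.26, 0.62 ± 0.28 and 0.12 ± 0.20 (adjusted p = 0.114, 0.199 and 0.795), where 4.19% of 15906 genes were called. In 1 fit of all groups Mt1 was called (log2FC 0.66, adjusted p = 0.00893). Set against SCI grafts the log2FC were -2.05 ± 0.37, -2.05 ± 0.39 and -1.97 ± 0.36 (adjusted p = 0.00745, 0.00867 and 0.00768), among the 0.538% of 15790 genes called lower (1.83% in either direction). These calls were close to the threshold. Each was lost without any 1 of 8 of the 10 libraries (adjusted p of up to 0.0300), and the ranges overlapped through graft replicate 5 in SCI. Of the gp130 and STAT3 genes 7 of 12 were higher in dSCI than in uninjured cord. Between the injuries edgeR called 0 of 12 (4 at an unadjusted p below 0.05, 1 by DESeq2).

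The share of Mt3 was nevertheless lower in dSCI than in uninjured grafts. The log2 ratio of Mt3 to Mt1 plus Mt2 was -2.71 ± 0.14, with no overlap (difference -0.54, exact permutation p = 0.00794, adjusted p = 0.0317), although edgeR called no member's own level. As in SCI, leaving out a library ends the call by design, at differences of -0.60 to -0.48.

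Cell markers also differed between graft groups. The 7 astrocyte markers summed to 10768–22509 CPM in SCI, 12205–18935 CPM in uninjured cord and 6627–13550 CPM in dSCI. Fibroblast and pericyte markers summed to 944–3359, 1642–3858 and 6545–21866 CPM, and myeloid markers to 509–1729, 192.5–1381 and 977–10779 CPM. Neuron markers summed to 392–658 CPM in SCI, 961–4359 CPM in uninjured cord and 222–1013 CPM in dSCI. Oligodendroglia markers summed to 3978–9902, 11251–25633 and 3505–11835 CPM, and endothelial markers to 10.9–41.9, 18.4–226 and 43.03–471 CPM. Between SCI and uninjured grafts the neuron and oligodendroglia sums did not overlap, and both were lower in SCI. The astrocyte, fibroblast, myeloid and endothelial sums overlapped there. The part of all these markers in the metallothionein levels was not tested.

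**Figure D5:**
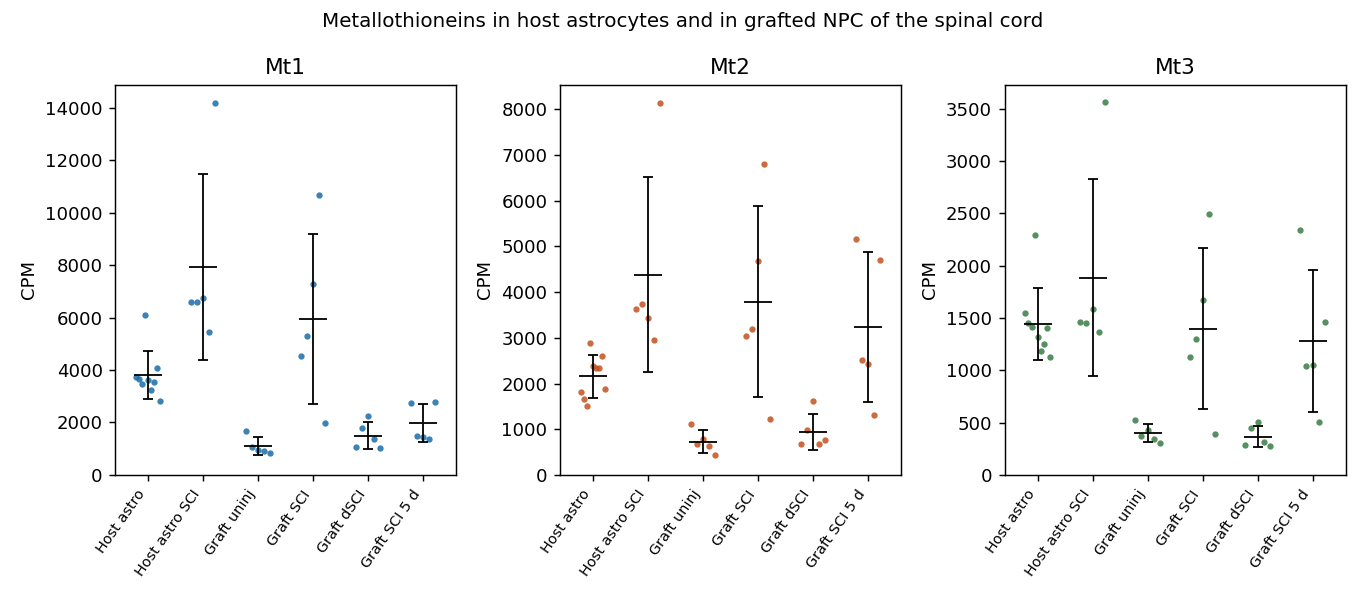
Mt1, Mt2 and Mt3 (CPM, linear axes from 0) in host astrocytes and in NPC grafts of the spinal cord, with a point per library, a bar at the mean and whiskers of 1 SD. Grafts in SCI lie between 1965 and 10675 CPM for Mt1, above all uninjured grafts, and 1 injured host library reaches 14196 CPM.

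The change with injury differed between host and grafted cells. The change in host astrocytes minus that in grafts was -1.76 ± 0.43 for Mt1, -1.74 ± 0.45 for Mt2 and -1.79 ± 0.43 for Mt3 (adjusted p = 0.00307, 0.00483 and 0.00266), where 6.11% of 17536 genes had a called negative difference and the median over all genes was 0.13. With healthy replicates 1 to 4 alone the differences were -1.88, -1.57 and -1.97 (adjusted p = 0.0140, 0.0460 and 0.0101), and with replicates 5 to 9 alone -1.67, -1.88 and -1.64 (adjusted p = 0.0125, 0.00676 and 0.0135), so 1 of these 6 was called. That of Mt2 was also lost without any 1 of 3 of the 24 libraries (adjusted p of up to 0.0157). The share of all genes called with either healthy set is not given here. With all healthy libraries, 9 of 12 gp130 and STAT3 genes had a called positive difference and 1 a negative one. Their median was 1.61, opposite in sign to the members, and 83.3% were called, beside 16.8% of all genes. The labels count 14 days from the crush for host cells. For grafts the sources count 14 d from the injury in one place and from grafting in another, so any difference in time since injury cannot be told apart from origin.

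The difference lay in the starting levels as well. Grafts in uninjured cord had less of each member than healthy host astrocytes, with no overlap (log2FC -2.35 ± 0.21, -2.13 ± 0.22 and -2.41 ± 0.18, adjusted p = 2.86e-08, 1.90e-07 and 3.33e-09), where 49.7% of 16506 genes were called and 23.3% were lower. Each was also called against either set of healthy libraries, in fits whose share of called genes is not given here. Astrocyte markers summed to 12205–18935 CPM in these grafts and 41337–48338 CPM in host astrocytes, oligodendroglia markers to 11251–25633 and 5084–10963 CPM, and neuron markers to 961–4359 and 179.2–275 CPM. Fibroblast and pericyte markers summed to 1642–3858 CPM in these grafts and 47.4–98.04 CPM in host astrocytes. The part of these markers was not tested. In SCI no member was called between grafts and host astrocytes (log2FC -0.51 ± 0.41, -0.31 ± 0.41 and -0.54 ± 0.42), where 14.6% of 16575 genes were. With standard errors of this size, such differences were not detectable with 5 libraries each.

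Set against NPC in DCH before grafting, SCI grafts were higher by 7.73 ± 0.41 for Mt1, 8.41 ± 0.49 for Mt2 and 4.51 ± 0.38 for Mt3 (adjusted p = 7.96e-09, 1.47e-08 and 3.72e-07). Of 15027 genes 51.6% were called and 28.4% were higher. In DCH the members had 34.9 ± 3.47, 13.9 ± 4.57 and 76.3 ± 11.2 CPM (SD, n = 5), and in SCI 5948 ± 3256, 3789 ± 2091 and 1397 ± 770 CPM.

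Grafts in SCI were also measured at 5 d. Mt1 was at 2739, 1502, 1457, 1356 and 2779 CPM, Mt2 at 5171, 2519, 2437, 1307 and 4703 CPM and Mt3 at 2338, 1042, 1055, 507 and 1459 CPM. Between 5 and 14 d edgeR called no member (log2FC 1.76 ± 0.41, 0.39 ± 0.45 and 0.28 ± 0.45, adjusted p = 0.0142, 0.628 and 0.742), where 5.3% of 15314 genes were. Mt1 was called by DESeq2 (1.75, adjusted p = 6.60e-05), in 1 edgeR fit of all groups (1.76, adjusted p = 5.79e-11) and without graft replicate 5 of the 14 d group (1.99, adjusted p = 0.00505), so its call depended on the fit. Fibroblast and pericyte markers summed to 5319–17260 CPM at 5 d and 944–3359 CPM at 14 d, myeloid markers to 644–15114 and 509–1729 CPM, and astrocyte markers to 7981–27384 and 10768–22509 CPM, and their part was not tested. The 5-day libraries were single-read and the 14-day libraries paired, so time and read type cannot be told apart.

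With the curated mRNA lengths, Mt2 exceeded Mt1 at 5 d, unlike in any other group but ESC. The linear ratio of Mt2 to Mt1 in FPKM had a geometric mean of 1.65 at 5 d, 0.682 in SCI grafts at 14 d and 1.78 in ESC, and was 0.77 or less in the others. The other single-read group, NPC P15 D2, had a ratio of 0.409. That lies within the means of the paired NPC groups, from 0.204 in P5 and 0.205 in P15 to 0.413 in DCH after 4 h.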

How the data were processed

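Reads came from RNA pulled down with HA-tagged Rpl22. The authors used Trimmomatic for trimming, HISAT2 (build mm10) for alignment and featureCounts for counts by Entrez gene, at default settings. The values they deposited are raw counts, not normalized, with 1 table per library and 27179 genes. Versions of these tools are not repeated here. The depth of each group is given in the text as ranges of total counts. Intervals are not given for single libraries, since each comparison had replicates.

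From the counts, CPM (counts scaled to a common library total) and FPKM (CPM per kilobase of curated RefSeq mRNA, 549 nt for Mt1, 511 for Mt2 and 536 for Mt3) were computed in Python 3.11.15 with pandas 2.3.3. Groups were taken from the sample titles. Each comparison used only its own groups in edgeR 4.0.16 (R 4.3.3), with TMM normalization, filterByExpr with a minimum count of 10, the quasi-likelihood F test and Benjamini-Hochberg adjustment over all genes tested. A gene was called at an adjusted p below 0.01. The standard error is the size of the log2FC divided by the square root of F. The script was tested on simulated counts. Ratios between members were compared by two-sided exact permutation over libraries, adjusted over 12 tests, with a threshold of 0.05. Per the study, graft groups held 5 mice each and culture experiments used independent replicates. The labels do not tie single libraries to cultures or animals, so p-values measure the spread between these libraries.

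The members and the gene lists were chosen with earlier results of these data known. From lists of genes for zinc, copper, Nrf2, glucocorticoids and gp130 with STAT3, Slc30a1 and Mtf1 were always named and otherwise at most the 2 called genes of largest change per list and comparison. The genes most like a member were the 3 with the highest correlation, of which 1 is not reported here. Alternatives were DESeq2 1.42.0, its size factors in edgeR, no filter on low counts, all groups in 1 fit, the replicate number as a block, another NPC group as reference and each library left out. The split of the healthy host libraries was added after the data were seen. Columns of comparisons made by the authors were not used.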

Additional observations from a re-analysis of the deposited data

Results flagged for a closer look

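Some libraries stood apart from their group by Dixon's test, which was applied to 69 sets of 1 member in 1 group, of which 7 were past the 95% value. Chance gives about 1 in 20. Injured host replicate 5 held 3 of them, at 14196 CPM of Mt1, 8148 CPM of Mt2 and 3564 CPM of Mt3. Healthy host replicate 4 held 2, at 6109 CPM of Mt1 and 2295 CPM of Mt3. The others were uninjured graft replicate 1, at 1687.4 CPM of Mt1, and replicate 4 at 1% FBS, at 2229 CPM of Mt3.

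The change with injury differed between host astrocytes and grafts by a test of the difference itself, host minus graft, at -1.76 for Mt1, -1.74 for Mt2 and -1.79 for Mt3 on the log2 scale. The change with CNTF in 5% FBS minus that without serum was -0.72 for Mt3.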

How the results depend on the processing

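Of 84 log2FC, direction and call were kept by all 84 under DESeq2's size factors and by all 84 without a filter, by 82 under DESeq2, 75 in 1 fit of all groups and 71 with the replicate block. DESeq2 added calls for Mt1 in SCI grafts at 14 against 5 d (1.75) and for Mt2 in CNTF by serum (-0.46).

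In 1 fit of all groups calls were lost for Mt1 in the 4 h hydrogel against media (0.56), Mt1 and Mt2 with IGF-1 (0.79 and 0.72), Mt1 and Mt3 at 20 against 1% FBS (-0.43 and -0.37), Mt3 with CNTF plus 5% FBS against CNTF (0.70) and Mt3 in CNTF by serum (-0.70). Calls were added for Mt1 in dSCI against uninjured grafts (0.66) and at 14 against 5 d (1.76). The cause was not tested.

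With the replicate block, calls were lost for IGF-1 (0.80, 0.71 and 1.014 for Mt1, Mt2 and Mt3), for Mt1 and Mt2 in injured host astrocytes (0.73 and 0.88), for dSCI against SCI grafts (-1.90, -1.93 and -1.79) and for injury by origin (-1.77, -1.57 and -1.83). Signs turned for Mt1 at 5 against 1% FBS (-0.0030) and Mt3 in injured host astrocytes (-0.013). In no comparison did all same-numbered libraries deviate together (r above 0.1 in every pair), so the numbers were not taken as pairs. Mean r was highest for 10 against 5% FBS, at 0.35 (0.040 to 0.51), and 3 of 4 libraries best matched their own number. There 1412 of 15302 genes were called with the replicate block and 279 without it. The block added no call for a member. What these libraries shared was not tested.

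With other NPC in place of P15, Mt3 against ESC turned to 2.13 (P15 D3), 2.55 (P15 D2), 1.03 (P5) and 2.89 (P30). Media against them gave -1.009 (P15 D3) and -0.92 (P5) for Mt1, then called. Mt2 turned to -0.30, -0.27, -0.067 and -0.042 (P15 D3, P15 D2, P5 and P30), and Mt3 to -0.28, -0.67 and -0.93 (P15 D3, P15 D2 and P30).

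With healthy host replicates 1 to 4 alone, injury gave 0.79 for Mt1, 1.05 for Mt2, -1.88, -1.57 and -1.97 for injury by origin, and 0.25 for Mt2 over Mt1, which turned. With replicates 5 to 9 it gave 0.72 for Mt2, -1.67 and -1.64 for Mt1 and Mt3 in injury by origin, and -0.28 for Mt2 over Mt1, then past the threshold (not adjusted).

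Of 963 fits with 1 library left out, 837 kept direction and call. Ranges were -0.19 to 0.078 for Mt3 in P15 against ESC, -0.16 to 0.048 for Mt2 in P30 against P5, -0.12 to 0.10 and 0.51 to 1.03 for Mt1 and Mt2 in media against P15, 0.36 to 0.53 for Mt1 in DCH against media, -0.052 to 0.33 for Mt2 in DCH with against without 4 h, and 0.52 to 0.68 and 0.57 to 1.10 for Mt1 and Mt2 in the 4 h group against media. Under CNTF they were -0.26 to 0.022, 0.16 to 0.25 and 0.26 to 0.46, and under IGF-1 0.67 to 0.95, 0.66 to 0.75 and 0.93 to 1.13. For 5 against 1% FBS Mt1 ran from -0.090 to 0.080 and Mt3 from -0.057 to 0.20, for 20 against 1% FBS Mt3 from -0.42 to -0.25, and for CNTF plus 5% FBS against 5% FBS Mt1 from -0.36 to -0.20 and Mt3 from -0.47 to -0.25. In injured host astrocytes Mt2 ran from 0.46 to 0.99 and Mt3 from -0.19 to 0.34. In dSCI against SCI the ranges were -2.25 to -1.71, -2.26 to -1.71 and -2.19 to -1.63, at 14 against 5 d 1.43 to 1.99 for Mt1 and -0.039 to 0.64 for Mt3, and in grafts against host after SCI -0.66 to 0.090 for Mt2. For Mt2 they were -2.15 to -1.39 in injury by origin and -0.55 to -0.35 in CNTF by serum, where Mt3 ran from -0.85 to -0.59. The log2 ratio of Mt3 to Mt1 plus Mt2 ran from -0.72 to -0.61 in SCI and -0.60 to -0.48 in dSCI grafts against uninjured, and Mt2 over Mt1 from -0.20 to 0.19 after 4 h in DCH and -0.14 to 0.028 in SCI grafts.

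Depth was high for each member, so the spread between libraries limits these values. FPKM by union of exons in place of the curated mRNA moves the shares, at 16.8% in place of 19.5% of Mt3 in healthy host astrocytes. The union is 1246 bases for Mt1, 588 for Mt2 and 1066 for Mt3, so it lowers Mt1 against Mt2. Which of Mt1 and Mt2 leads in a group therefore depends on the lengths used.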

Other observations

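Mt4, the member of the family known from stratified epithelia, was chosen here after its values were seen. It lies at 0.425–2.86 CPM in the 4 ESC libraries (38–222 counts) and did not exceed 16 counts in any other library.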
